A study of Homo sapiens with 6 samples.

Results

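The 42 genes described here are nucleolar and pre-rRNA processing factors, the proteins that build ribosomes. They were taken by gene symbol from the deposited count table of 58735 genes, and each symbol matched 1 row. RNA of Ovcar8 cells, an established line derived from a human high-grade serous carcinoma of the ovary, was measured by bulk sequencing. One group was serum-starved for 48 h, and the other received 5% fetal bovine serum (FBS, which supplies growth factors to cultured cells) for the same 48 h, with 3 libraries in each group. Both groups were the same line with no other agent named. Whether replicates were grown separately is not stated, and the p-values therefore measure only how these 6 libraries vary, which may be technical.

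A ribosome starts in the nucleolus, where RNA polymerase I copies the ribosomal DNA into a long precursor RNA. Small nucleolar ribonucleoproteins (snoRNPs) modify and guide the cutting of that precursor: those of the box C/D kind methylate it and those of the box H/ACA kind turn uridine into pseudouridine. Separate sets of assembly factors then fold and trim the precursors of the small and the large subunit, and cancer cells that divide fast are known for high output of this pathway, which growth factor signalling and the transcription factor MYC promote.

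Most factors had somewhat lower levels in the serum-starved libraries, and none passed the test. In the 41 factors with enough counts to be tested, 36 had a log2 fold change (serum-starved over FBS) below 0, against 51.5% of all 13772 genes tested, and their median was -0.49, against -0.02 for all genes tested. edgeR's quasi-likelihood test called 0 of the 41 at an adjusted p under 0.05, where 0.283% of all genes were called in either direction and 0.0436% were called lower. DESeq2, limma-voom and limma on the deposited FPKM values (a level per gene length) also called 0 of them. Over all 13772 genes DESeq2 called 118 higher and 42 lower, and limma-voom called 31 higher and 7 lower. Of 11565 genes, limma on log2(FPKM + 1) called 16 higher and 6 lower, and on log2(FPKM + 0.1) 12 higher and 7 lower. At an unadjusted p under 0.05, 7 factors were lower and 0 were higher, beside 4.37% of all genes that were lower and 6.01% that were higher. In 10 factors each serum-starved library lay below each FBS library and in 0 each lay above, beside 7.65% of all genes whose groups did not overlap in the lower direction and 10% in the higher. The values are shares of each library's RNA, so fewer cells of a kind and less RNA per cell cannot be told apart.

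The 6 libraries held 17288356, 18201183 and 19558484 counts in the serum-starved replicates 1 to 3 and 17882533, 17292872 and 16379416 in the FBS replicates, so that 3 counts equalled 0.132 to 0.204 CPM. CPM here is a gene's count relative to its library's total after scaling by the trimmed mean of M-values (TMM). The marker levels below are the exception, being relative to the total alone. Genes of low and of high GC content moved apart between libraries of the same group, and this touched the factors as given below. Of 11 ovarian carcinoma and epithelial markers, 9 were detected well enough to test, with a summed level of 9909 to 11650 CPM in serum-starved and 7878 to 11500 CPM in FBS libraries, while MUC16 was at 0 and CDH1 and KRT19 stayed below 1 CPM. Of 6 fibroblast markers only COL1A1 was tested, with COL1A2 and DCN at 0, and the list summed to 675 to 885 CPM in serum-starved and 350 to 554 CPM in FBS libraries. The immune list (1 of 5 tested, CD3E at 0) summed to 1.92 to 2.55 CPM in serum-starved and 1.40 to 3.36 CPM in FBS libraries, and the endothelial list (1 of 3 tested) to 1.54 to 3.88 CPM in serum-starved and 0.244 to 0.752 CPM in FBS libraries. The part of these markers in the results on the factors was not tested.

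The promoters of 3 factors are shown because they carry the letters CACGTG, the E-box that MYC binds together with its partner MAX. They are the 3 factors with the smallest p among those with the motif in a window of 250 bases before to 50 bases after the RefSeq gene start. The sequences are from RefSeq (build GRCh38.p14), written 5′ to 3′ along the gene's strand, with the E-box in capitals. The NOC3L window is chr10:94362890-94363189 on the minus strand, the WDR43 window is chr2:28894417-28894716 on the plus strand and the GNL3 window is chr3:52685782-52686081 on the plus strand.
NOC3L: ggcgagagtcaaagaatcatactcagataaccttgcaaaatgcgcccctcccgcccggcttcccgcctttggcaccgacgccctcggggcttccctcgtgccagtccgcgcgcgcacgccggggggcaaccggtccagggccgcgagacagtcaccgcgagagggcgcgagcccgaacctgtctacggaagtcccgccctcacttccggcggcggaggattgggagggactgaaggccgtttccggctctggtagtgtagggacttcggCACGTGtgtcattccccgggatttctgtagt
WDR43: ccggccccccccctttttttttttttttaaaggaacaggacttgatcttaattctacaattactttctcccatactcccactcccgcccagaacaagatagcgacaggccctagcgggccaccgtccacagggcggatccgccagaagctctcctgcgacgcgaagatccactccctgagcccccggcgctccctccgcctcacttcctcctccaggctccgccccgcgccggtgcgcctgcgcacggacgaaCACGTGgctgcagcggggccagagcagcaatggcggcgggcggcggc
GNL3: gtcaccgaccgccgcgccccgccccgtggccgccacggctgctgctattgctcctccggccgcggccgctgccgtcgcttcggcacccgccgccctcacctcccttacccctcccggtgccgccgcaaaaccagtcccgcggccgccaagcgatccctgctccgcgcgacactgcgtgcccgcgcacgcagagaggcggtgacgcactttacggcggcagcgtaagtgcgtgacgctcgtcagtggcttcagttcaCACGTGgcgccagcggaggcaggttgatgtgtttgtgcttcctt

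The E-box began at base 20 in NOC3L, base 4 in WDR43 and base 7 in GNL3, with the RefSeq gene start as base 1. This start can differ from the gene start in the count table. There GNL3 begins at 52681156, upstream of its window, and the windows of PES1 and UTP4, for example, also lie inside the gene. CACGTG reads the same on both strands, so it was searched once. A window was held for 35 of the 42 factors, and 16 of the 35 (45.7%) carried the motif, beside 1727 of 15842 protein-coding genes (10.9%) over windows of the same length. The 16 were NOC3L, WDR43, GNL3, RRP9, NOP14, GAR1, BYSL, LTV1, NOL6, DDX21, NOP2, UTP20, NOP10, UTP4, FBL and PES1. They held 17 copies, of which 11 lay after the RefSeq gene start, and each of the 16 had a copy within 50 bases of that start. BOP1, TCOF1, NOLC1, NOP58, RRP12, RRP1B and RRS1 had no window here. The 15 tested carriers had a median log2 fold change of -0.53 and the 19 tested factors without the motif one of -0.49, so carriers and non-carriers had nearly the same median. With the correction for GC content described below the medians were -0.27 in carriers and -0.43 in the others. A match of letters is a description of the window and shows no binding.

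**Figure D1:**
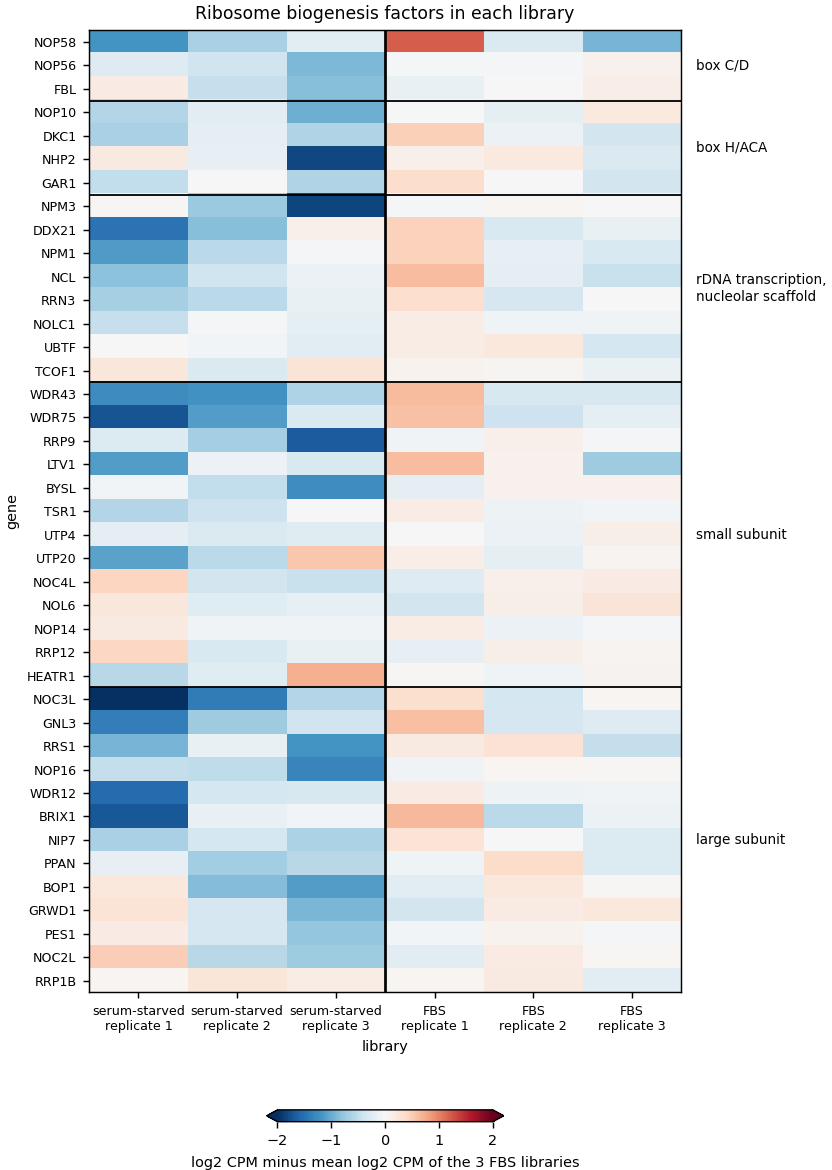
Each row is 1 of the 41 tested factors, ordered by role and then by log2 fold change, and each column is a library. Colour gives the log2 CPM minus the mean log2 CPM of the 3 FBS libraries (blue below, red above); 27, 40 and 35 of the 41 factors lie below 0 in serum-starved replicates 1, 2 and 3.

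Large subunit factors had the lowest median of the 5 role groups, -0.56, with 12 of the 13 tested below 0. This order was not stable. Without serum-starved replicate 1 the 3 box C/D proteins had -0.63, against -0.60 for the large subunit factors. Without FBS replicate 2 the factors of ribosomal DNA transcription and nucleolar scaffold had -0.60, against -0.56. NOC3L, whose yeast counterpart pairs with Noc2 on precursors of the large subunit, had the smallest p of all factors. It lies on chromosome 10, from 94333226 to 94362959 (GRCh38, minus strand). NOC3L measured 2.79, 6.53 and 11.8 CPM in the serum-starved libraries, against 22.6, 14.1 and 18.5 CPM in the FBS libraries. The groups did not overlap, and serum-starved replicate 1 was far below the other 2. The log2 fold change was -1.37 (SE 0.44), which is 38.6% of the FBS level, with an adjusted p of 0.289 in edgeR.

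GNL3, also called nucleostemin, is a nucleolar GTP-binding protein needed for processing of the precursor RNA (chromosome 3, 52681156 to 52694492, plus strand). Its level was 17.3, 28.1 and 34.9 CPM in serum-starved cells, against 69.8, 36.3 and 38.4 CPM with FBS. Serum-starved replicate 3 came close to FBS replicate 2 without reaching it, and FBS replicate 1 stood well above the rest. The log2 fold change of GNL3 was -0.85 (SE 0.34, adjusted p = 0.397). NOP16, a nucleolar protein of early large-subunit precursors (chromosome 5, 176383938 to 176388975, minus strand), had 54.8, 53.2 and 30.0 CPM in serum-starved libraries, against 72.8, 78.5 and 77.2 CPM in FBS libraries. Its 3 FBS values lay close together and above every serum-starved value, with a log2 fold change of -0.73 (SE 0.30, adjusted p = 0.403).

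NIP7, an assembly factor first described in yeast (chromosome 16, 69337996 to 69343111, plus strand), had 43.3, 52.9 and 43.8 CPM in serum-starved cells, against 82.6, 67.9 and 56.0 CPM in cells with FBS. The highest serum-starved value was just below the lowest FBS value, and the log2 fold change was -0.56 (SE 0.28, adjusted p = 0.507). RRS1, which helps to place the small 5S ribonucleoprotein into the large subunit in yeast, had 23.6, 40.8 and 19.5 CPM in serum-starved libraries, against 51.3, 55.7 and 32.6 CPM in FBS libraries. Its groups overlapped through serum-starved replicate 2, and its log2 fold change was -0.74 (SE 0.34, adjusted p = 0.457).

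WDR12, BOP1 and PES1 form the PeBoW complex, which is needed for maturation of large-subunit RNA. WDR12 (chromosome 2, 202874782 to 203014798, minus strand) had 7.82, 18.3 and 18.7 CPM in serum-starved cells, against 26.4, 22.0 and 22.5 CPM with FBS. Its groups did not overlap, though serum-starved replicates 2 and 3 were near the FBS values. BOP1 had the highest level per length of all factors, and it measured 1182, 559 and 469.5 CPM in serum-starved libraries, against 870, 1179 and 1041 CPM in FBS libraries. Serum-starved replicate 1 was as high as the highest FBS library while the other 2 were below every FBS library. The log2 fold changes were -0.66 (SE 0.36) for WDR12, -0.48 (SE 0.36) for BOP1 and -0.26 (SE 0.31) for PES1, with edgeR adjusted p-values of 0.543, 0.702 and 0.822. Without serum-starved replicate 3 the values of BOP1 and PES1 were -0.25 and -0.063, and that of WDR12 was -0.85. Without serum-starved replicate 1 they were -0.99 for BOP1, -0.52 for PES1 and -0.34 for WDR12.

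The remaining large subunit factors overlapped between groups. BRIX1 averaged 11.2 ± 5.84 CPM in serum-starved and 16.6 ± 7.37 CPM in FBS libraries (SD, n = 3 each, as below). PPAN averaged 6.63 ± 1.43 CPM in serum-starved and 9.42 ± 2.38 CPM in FBS libraries. GRWD1, whose yeast counterpart is a chaperone of a large-subunit protein, averaged 221 ± 89.0 CPM in serum-starved and 267 ± 55.9 CPM in FBS libraries, and NOC2L averaged 318 ± 156 CPM in serum-starved and 356 ± 45.7 CPM in FBS libraries. Their log2 fold changes were -0.57, -0.51, -0.27 and -0.17, in the order named, and GRWD1 had -0.026 without serum-starved replicate 3. RRP1B was the highest of all factors relative to FBS, with 62.2, 71.8 and 67.3 CPM in serum-starved cells, against 62.0, 68.2 and 52.2 CPM in cells with FBS. Its values overlapped throughout, and its log2 fold change was 0.14 (SE 0.27, adjusted p = 0.902).

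NOP2, a methyltransferase of large-subunit RNA, was the 1 factor not tested, with 17 counts over the 6 libraries and 0 to 0.0549 FPKM. In GENCODE 29 it overlaps the protein-coding gene AC006064.6 on the same strand, which had 0 counts. PPAN (850 counts in all) likewise overlaps PPAN-P2RY11, LTV1 (333 counts) overlaps AL049844.1 and AL049844.3, and RRS1 (3979 counts) overlaps AC009879.2, each of which had 0 counts. PPAN also overlaps P2RY11 on the same strand, which had 472 counts. How reads shared by such genes were counted is not given in the sources used here, so the levels of NOP2, PPAN, LTV1 and RRS1 are uncertain. UTP4 and GRWD1 likewise overlap SNTB2 (1122 counts) and KCNJ14 (319 counts) on the same strand.

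Small subunit factors were mixed, with a median of -0.24 and 10 of 13 below 0. WDR43, UTP4, WDR75 and HEATR1 belong to the t-UTP group, which binds the start of the precursor RNA and is linked to its transcription. WDR43 (chromosome 2, 28894643 to 28948222, plus strand) had 10.9, 11.3 and 17.3 CPM in serum-starved libraries, against 41.97, 21.4 and 21.3 CPM in FBS libraries. Each serum-starved value was below each FBS value, and FBS replicate 1 stood about as high as the other 2 together. WDR43 had a log2 fold change of -1.10 (SE 0.36), which is 46.6% of the FBS level, with an adjusted p of 0.290 in edgeR. WDR75 had 4.49, 7.08 and 13.0 CPM in serum-starved libraries, against 24.3, 11.9 and 14.04 CPM in FBS libraries. Serum-starved replicate 3 of WDR75 lay above FBS replicate 2, and the log2 fold change was -1.03 (SE 0.42, adjusted p = 0.404).

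UTP4 (chromosome 16, 69131291 to 69231130, plus strand) had a small difference, with 147, 136 and 140.2 CPM in serum-starved cells, against 166, 155 and 181 CPM with FBS. Its groups did not overlap although its log2 fold change was only -0.24 (SE 0.28, adjusted p = 0.814). HEATR1 had 25.5, 31.6 and 61.6 CPM in serum-starved cells, against 38.1, 35.3 and 39.2 CPM with FBS. Its FBS values were nearly equal while the serum-starved ones lay on both sides of them, with a log2 fold change of 0.08 (SE 0.33, adjusted p = 0.959).

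RRP9 is a protein of the snoRNP that guides the first cuts towards the small-subunit RNA (chromosome 3, 51933430 to 51941941, minus strand). It had 137, 104 and 51.7 CPM in serum-starved libraries, against 158, 177 and 162 CPM in FBS libraries. The groups did not overlap, and serum-starved replicate 3 was the lowest by far. RRP9 had a log2 fold change of -0.77 (SE 0.33, adjusted p = 0.431). BYSL, which takes part in late cuts of the small-subunit precursor, averaged 85.1 ± 32.8 CPM in serum-starved and 123 ± 13.1 CPM in FBS libraries, with a log2 fold change of -0.53. LTV1, an export factor in yeast, averaged 2.34 ± 0.93 CPM in serum-starved and 3.67 ± 1.80 CPM in FBS libraries, with a log2 fold change of -0.65.

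Of the other 6 small subunit factors, TSR1, UTP20, NOL6 and NOC4L had log2 fold changes of -0.32, -0.20, -0.07 and -0.08. TSR1, a late assembly factor, averaged 54.4 ± 12.1 CPM in serum-starved and 67.6 ± 6.38 CPM in FBS libraries, and UTP20 averaged 22.9 ± 13.9 CPM in serum-starved and 26.4 ± 3.14 CPM in FBS libraries. NOL6 averaged 123 ± 22.8 CPM in serum-starved and 129 ± 27.7 CPM in FBS libraries. NOC4L and NOP14 form a complex in yeast, and NOC4L averaged 121 ± 43.0 CPM in serum-starved and 128 ± 19.0 CPM in FBS libraries. NOP14 had 67.0, 56.3 and 56.6 CPM in serum-starved cells, against 66.0, 54.9 and 57.7 CPM with FBS. RRP12 had 207, 125 and 139.8 CPM in serum-starved cells, against 138, 168 and 162 CPM with FBS. The groups of both genes overlapped, and both had a log2 fold change of 0.01 (SE 0.27 for NOP14 and 0.30 for RRP12, edgeR adjusted p = 0.994 and 0.993). On total counts alone both lay just below 0, at -0.0090 and -0.011.

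**Figure D2:**
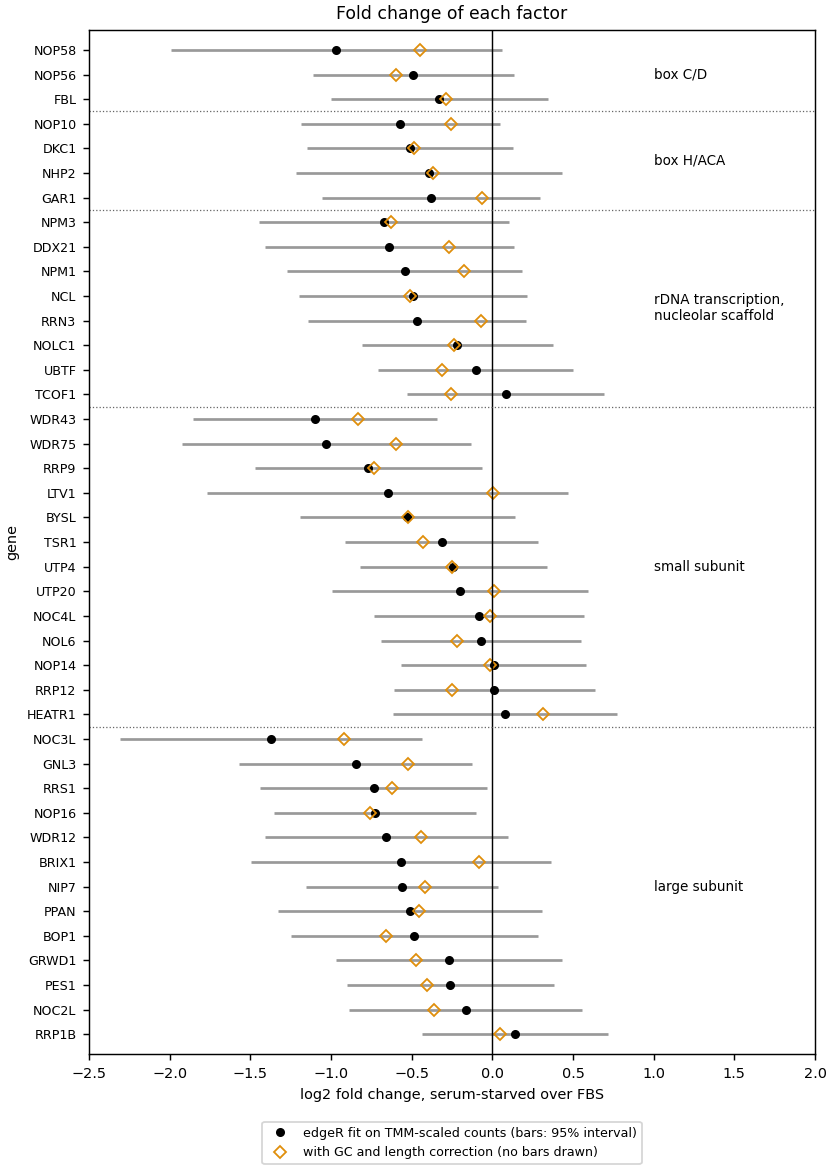
Each row is a tested factor, ordered by role; the x axis is the log2 fold change, serum-starved over FBS. Black points with grey bars are the edgeR estimates with 95% intervals, and orange diamonds the estimates with the GC and length correction; of the black points NOC3L lies furthest left at -1.37 and RRP1B furthest right at 0.14.

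All 7 core proteins of the snoRNPs had a log2 fold change below 0. Among the box C/D proteins, NOP56 (chromosome 20, 2652145 to 2658393, plus strand) had 270.3, 245 and 173 CPM in serum-starved libraries, against 312, 313 and 342 CPM in FBS libraries. The groups did not overlap, and its log2 fold change was -0.49 (SE 0.30, adjusted p = 0.590). FBL, the methyltransferase of the box C/D particle, had 479, 312 and 238 CPM in serum-starved libraries, against 386, 434 and 471 CPM in FBS libraries. Serum-starved replicate 1 had the highest FBL value of all 6 libraries and replicate 3 the lowest, with a log2 fold change of -0.33 (SE 0.32, adjusted p = 0.777). NOP58, the partner of NOP56, had 5.30, 7.96 and 10.9 CPM in serum-starved libraries, against 30.4, 10.4 and 6.50 CPM in FBS libraries. Its log2 fold change of -0.97 (SE 0.49, adjusted p = 0.513) rested on FBS replicate 1, and without that library it was -0.07.

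Of the box H/ACA proteins, NOP10 (chromosome 15, 34341713 to 34343177, minus strand) had 85.8, 111 and 65.9 CPM in serum-starved cells, against 129, 114 and 148 CPM with FBS. The groups came within a few CPM of each other without overlapping, and the log2 fold change was -0.57 (SE 0.29, adjusted p = 0.520). DKC1, the pseudouridine synthase called dyskerin, averaged 66.3 ± 12.8 CPM in serum-starved and 94.4 ± 30.0 CPM in FBS libraries (log2 fold change -0.51). GAR1 averaged 21.0 ± 4.94 CPM in serum-starved and 27.4 ± 6.90 CPM in FBS libraries (log2 fold change -0.38). NHP2 averaged 127 ± 72.5 CPM in serum-starved and 166 ± 28.5 CPM in FBS libraries, with a log2 fold change of -0.39 that was 0.0021 without serum-starved replicate 3.

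The factors of ribosomal DNA transcription and of the nucleolar scaffold had a median of -0.48, with 7 of 8 below 0, and each of the 8 overlapped between groups. NPM1, an abundant nucleolar histone chaperone, had 262, 394 and 559.8 CPM in serum-starved libraries, against 791, 514 and 466 CPM in FBS libraries. Serum-starved replicate 3 exceeded 2 FBS libraries, and the log2 fold change was -0.54 (SE 0.35, adjusted p = 0.615). Its relative NPM3 had 119, 69.9 and 32.5 CPM in serum-starved libraries, against 115, 121 and 117 CPM in FBS libraries. The FBS values of NPM3 were nearly equal, whereas serum-starved values ran from that level down to the 32.5 CPM of replicate 3 (log2 fold change -0.67, SE 0.37, adjusted p = 0.543). DDX21, an RNA helicase, had 27.0, 42.04 and 82.0 CPM in serum-starved cells, against 105, 61.5 and 68.5 CPM with FBS, and its groups overlapped through serum-starved replicate 3 (log2 fold change -0.64, SE 0.37, adjusted p = 0.569).

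NCL (nucleolin) averaged 224 ± 53.9 CPM in serum-starved and 316 ± 129 CPM in FBS libraries, with a log2 fold change of -0.49. This value was -0.12 without FBS replicate 1 and -0.69 without FBS replicate 3. RRN3, which brings RNA polymerase I to its promoter, averaged 18.1 ± 3.59 CPM in serum-starved and 25.1 ± 5.99 CPM in FBS libraries, with a log2 fold change of -0.47. UBTF, the factor that keeps ribosomal DNA open for that polymerase, averaged 139 ± 10.5 CPM in serum-starved and 149 ± 29.7 CPM in FBS libraries, with a log2 fold change of -0.10. NOLC1, a chaperone of snoRNPs, averaged 127 ± 19.0 CPM in serum-starved and 147 ± 13.3 CPM in FBS libraries, with a log2 fold change of -0.22. TCOF1, the treacle protein that ties transcription to processing, had 209, 146 and 214 CPM in serum-starved libraries, against 189, 186 and 163 CPM in FBS libraries. Its serum-starved values lay on both sides of the FBS values, with a log2 fold change of 0.08 (SE 0.29, adjusted p = 0.949).

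Levels per length differed widely between factors on the deposited FPKM scale. BOP1 averaged 194 ± 103 FPKM in serum-starved and 271 ± 43.6 FPKM in FBS libraries. NOP10 came next with 154 ± 39.9 FPKM in serum-starved and 229 ± 29.9 FPKM in FBS libraries, FBL had 154 ± 56.0 FPKM in serum-starved and 193 ± 20.9 FPKM in FBS libraries, and NPM1 had 103 ± 37.8 FPKM in serum-starved and 150.1 ± 42.7 FPKM in FBS libraries. Over the 6 libraries BOP1 ran from 123 to 312 FPKM, NOP10 from 116 to 261, FBL from 106 to 216 and NPM1 from 66.9 to 199, so neighbours in this order overlapped. At the low end, LTV1 averaged 1.23 ± 0.49 FPKM in serum-starved and 1.93 ± 0.93 FPKM in FBS libraries. Genes for proteins of 1 particle did not share a measured level. In FBS libraries NOP58 averaged 4.63 ± 3.72 FPKM, while its box C/D partners FBL and NOP56 averaged 193 ± 20.9 and 58.3 ± 3.42 FPKM. These genes also differ in GC content, with 42.2% in NOP58, 56.7% in FBL and 52% in NOP56. BOP1 has 65.1% and LTV1 41.7%. FPKM is not corrected for GC content, and its part in these levels was not tested.

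**Figure D3:**
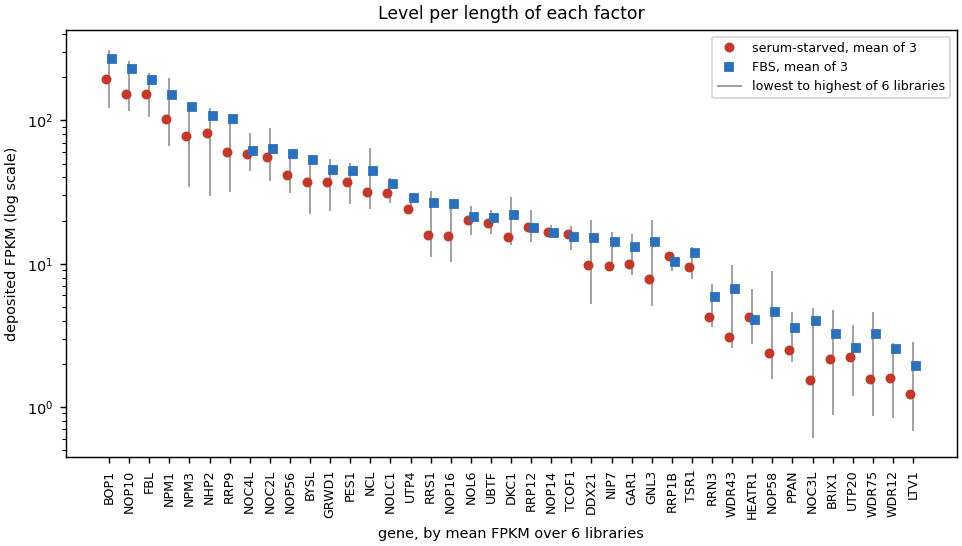
The y axis is the deposited FPKM on a log scale and the x axis the 41 tested factors, ordered by their mean over the 6 libraries. Red circles are the means of the 3 serum-starved libraries, blue squares those of the 3 FBS libraries and grey lines run from the lowest to the highest library; BOP1 is highest and LTV1 lowest.

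In 4 of the 6 libraries the deviation of the factors ran with their GC content (the mean over a gene's transcripts, median 50.3% for the factors and 50.7% for all genes), and in serum-starved replicate 2 and FBS replicate 3 the relation was weaker. Across the 41 factors, the deviation from the FBS mean had a Spearman rho with GC content of 0.84, 0.04 and -0.47 in serum-starved replicates 1 to 3, and of -0.77, 0.80 and 0.30 in FBS replicates 1 to 3. These are descriptions across genes of 1 library each, which are not independent. In serum-starved replicates 1, 2 and 3, 27, 40 and 35 of the 41 factors lay below the FBS mean. All genes tested had median deviations of -0.019, 0.0089 and -0.014 in those libraries. The part of GC content in these counts was not tested. Among the 20 factors of lower GC content, serum-starved replicate 1 held the lowest value for 17 and FBS replicate 1 the highest value for 16. Of the 21 factors of higher GC content, serum-starved replicate 3 held the lowest value for 13. The GC-poor factors had a median log2 fold change of -0.56 and the GC-rich ones one of -0.32. Across the factors, log2 fold change and GC content had a rho of 0.35.

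**Figure D4:**
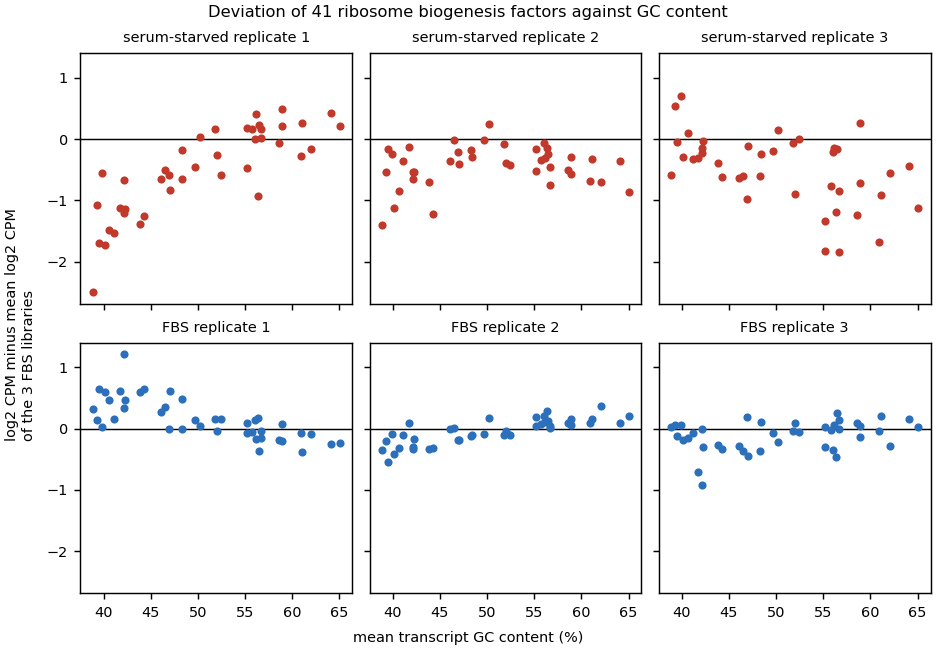
Each panel is a library (serum-starved above, FBS below) and each point 1 of the 41 factors; the x axis is mean transcript GC content in percent and the y axis the log2 CPM minus the mean log2 CPM of the 3 FBS libraries. The points climb with GC content in serum-starved replicate 1 (rho 0.84) and FBS replicate 2 (0.80) and descend in FBS replicate 1 (-0.77) and serum-starved replicate 3 (-0.47).

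A correction for each library's trend with GC content and gene length, fitted over all genes, left most factors below 0, with a smaller median shift. The number below 0 was 37 of 41, against 49.0% of all genes, and the median was -0.37. Again 0 factors were called, beside 0.835% of all genes, while 14 were lower at an unadjusted p under 0.05 (7.49% of all genes) and 14 did not overlap in the lower direction (10.9% of all genes). Across the factors the rho between log2 fold change and GC content was then -0.22. The correction did not remove the trend among the factors in every library: the rho of their deviation with GC content was then 0.22, -0.53 and -0.26 in serum-starved replicates 1 to 3 and -0.06, 0.21 and -0.11 in FBS replicates 1 to 3, so that in serum-starved replicate 2 it was further from 0 than before. In serum-starved replicates 1 to 3, 31, 35 and 33 of the 41 factors lay below the FBS mean with the correction. The median log2 fold change of the GC-poor factors was -0.26 with the correction and that of the GC-rich factors -0.41. By role, the corrected medians were -0.45 for large subunit factors, -0.45 for box C/D and -0.31 for box H/ACA proteins. Those of ribosomal DNA transcription and nucleolar scaffold had -0.26, near the -0.25 of small subunit factors.

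The correction changed which factors stood out. NOC3L had a corrected log2 fold change of -0.92 (SE 0.30, adjusted p = 0.148) and WDR43 one of -0.83 (SE 0.25, adjusted p = 0.122). NOP16 and RRP9 had the smallest adjusted p, 0.0773 for both, with log2 fold changes of -0.76 (SE 0.19) and -0.73 (SE 0.18). BOP1 no longer overlapped between groups, with a log2 fold change of -0.66 (SE 0.23, adjusted p = 0.177). NOLC1, NCL, NPM3, WDR75, BYSL, PES1 and GRWD1 no longer overlapped either. In contrast, NIP7, WDR12, UTP4 and NOP10, whose groups had not overlapped before, then did. Their corrected log2 fold changes were -0.42, -0.44, -0.25 and -0.26. GAR1 was at -0.07, RRN3 at -0.07, BRIX1 at -0.08 and LTV1 at 0.0011, all nearer to 0 than before. TCOF1 and RRP12, above 0 before, had corrected values of -0.25 and -0.25, while HEATR1 had 0.31.

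Single libraries decided some calls. Without serum-starved replicate 3, edgeR called NOC3L (log2 fold change -1.97, adjusted p = 0.0112), DDX21 (-1.19, 0.0343), WDR43 (-1.35, 0.0398) and WDR75 (-1.53, 0.0438) lower, beside 0.938% of the 14179 genes then tested. When that library was left out and the GC and length correction was applied, 0 factors were called. Of the 14179 genes in that fit, 65 were called higher and 28 lower. Each of the 4 has a GC content below the median of the factors, and its part in the calls was not tested. With the correction and without serum-starved replicate 1, NPM3 alone was called lower (adjusted p = 0.0467), beside 0.189% of the 14317 genes then tested. Without FBS replicate 1 the median of the factors was -0.28. Of the 41 factors, the log2 fold change shrank by over 1.5 times or changed sign in 12, 5 and 15 without serum-starved replicates 1, 2 and 3, and in 14, 6 and 6 without FBS replicates 1, 2 and 3. In the same order it grew by over 1.5 times in 11, 7 and 6 factors and in 5, 2 and 3 factors.

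The rest of the pathway was described through 119 other factors, of which 118 were tested (DDX47 was not). In edgeR 0 of the 118 were called, 98 had a log2 fold change below 0 and the median was -0.38. At an unadjusted p under 0.05, 17 were lower and 2 higher, and 25 did not overlap in the lower direction and 2 in the higher, to be read beside the shares of all genes given above (4.37% lower and 6.01% higher at that p, 7.65% lower and 10% higher without overlap). Medians were -0.40 for the other small subunit factors (36 of 42 below 0), -0.38 for the other large subunit factors (36 of 46), -0.39 for snoRNP assembly factors (8 of 9) and -0.34 for the RNA exosome and RNase MRP (18 of 21). Their overall median thus lay between -0.49 for the 41 tested factors and -0.02 for all genes. Without serum-starved replicate 3, UTP18, NOL11, DDX18, GTPBP4 and RSL24D1 were called lower, beside 0.938% of all genes then tested. In DESeq2 UTP15 was called lower, beside 42 of all 13772 genes.

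UTP15, a further t-UTP protein, had 1.02, 2.09 and 1.89 CPM in serum-starved cells, against 9.60, 4.89 and 3.84 CPM with FBS, with a log2 fold change of -1.86 (SE 0.51, adjusted p = 0.195). PNO1 and UTP18, also of the small subunit, had log2 fold changes of -0.86 and -0.91. SBDS and LYAR, of the large subunit, had -1.01 and -1.06, ZNHIT6, NAF1 and RUVBL2, which assemble snoRNPs, had -0.77, -0.76 and -0.57, and RPP38 and MTREX had -1.60 and -0.97. With the GC and length correction the values nearest to 0 among these were -0.22 for UTP18, -0.28 for ZNHIT6, -0.47 for LYAR, -0.51 for SBDS, -0.51 for NAF1 and -0.52 for MTREX. MDN1, the large ATPase that strips factors from large-subunit precursors, went the other way, with 22.6, 28.7 and 65.5 CPM in serum-starved cells, against 20.9, 17.5 and 16.8 CPM with FBS. Its groups did not overlap, and its log2 fold change was 1.08 (SE 0.37, adjusted p = 0.315). PWP2, named because its value was the largest of these lists once the values were seen, had 9.58, 0.220 and 0.617 CPM in serum-starved cells, against 0.711, 0.655 and 0.585 CPM with FBS. Its log2 fold change of 2.39 (SE 0.97, adjusted p = 0.397) rested on serum-starved replicate 1 and the groups overlapped. POP1, a subunit of RNase MRP, had 15.1, 26.0 and 24.1 CPM in serum-starved cells, against 43.8, 42.9 and 38.2 CPM with FBS. With the GC and length correction it passed the test, with a log2 fold change of -0.95 and an adjusted p of 0.0487, and without the correction it did not, with -0.93 and 0.290.

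**Figure D5:**
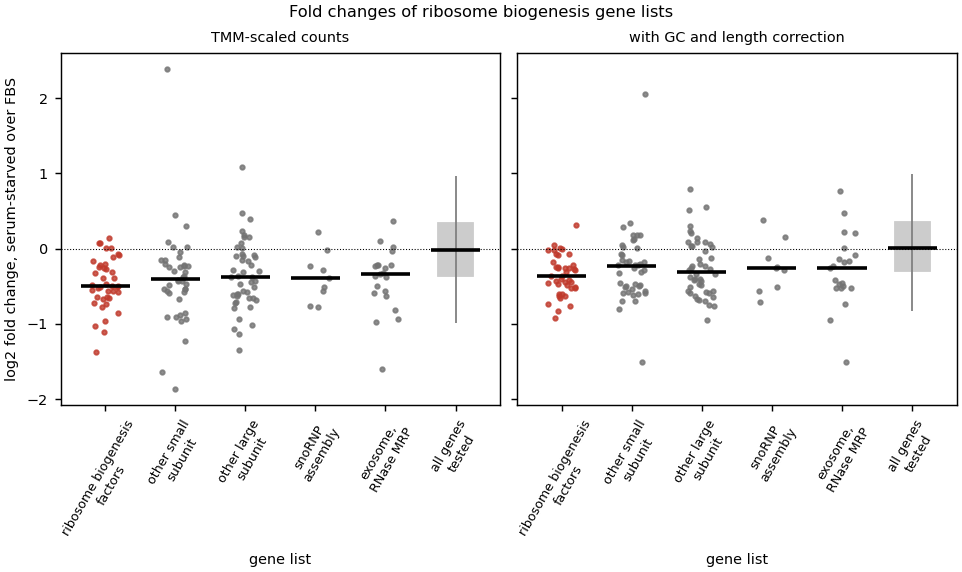
The y axis is the log2 fold change, serum-starved over FBS, from TMM-scaled counts (left) and with the GC and length correction (right). Points are genes, red for the 41 tested factors and grey for the lists of other factors, black lines are medians, and for all genes tested the box spans the 25th to 75th and the line the 5th to 95th percentile; the factors' median is -0.49 on the left and -0.37 on the right.

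Several factors share their position with other genes, judged on whole gene spans with introns. Whether strand was used in counting is not stated. If it was not, reads of UTP4 cannot be told apart from those of CHTF8 on the opposite strand where their exons overlap. The same would hold for NOP16 and HIGD2A, NHP2 and RMND5B, TSR1 and SGSM2, RRN3 and PDXDC1, BRIX1 and RAD1, and NIP7 and COG8. It would also hold for GNL3 with GLT8D1 (1776 counts) and PBRM1 (1075 counts), and for HEATR1 with LGALS8 (1956 counts). NOP14 with NOP14-AS1 (1921 counts) and PES1 with TCN2 (1633 counts) are further cases. NPM1 has 45 annotated pseudogenes, whose counts came to 1.68% of its own, and for RRN3 this share was 8.06%. NOP56, NOP58, DKC1, NCL, GNL3, WDR43, TSR1 and PPAN hold genes of small nucleolar RNAs on the same strand, and each of these had at most 8 counts over the 6 libraries.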

How the data were processed

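Libraries were made from total RNA of Ovcar8 cells. STAR 2.6.1, DESeq2 and the build GRCh38 are named, with no roles, per the submitters' processing notes; the counter and its use of strand were not given in the sources used here. Deposited values comprise the authors' raw counts per gene. They also comprise the authors' FPKM values, which equalled the count over gene length and over the DESeq2 size factor (ratio 1 at the 1st and 99th percentile of 12442 genes). Start and end of 58724 of the 58735 genes matched GENCODE 29.

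Counts were filtered by edgeR (filterByExpr at a minimum of 10 counts and 15 in total), leaving 13772 genes, and scaled with TMM. The groups were compared by the quasi-likelihood test of edgeR 4.0.16 under R 4.3.3, with a robust fit. p-values were adjusted over all genes tested by Benjamini-Hochberg, with a threshold of 0.05. The biological coefficient of variation was 36.3%. Levels are TMM-scaled CPM with SD, except the cell type markers, which are CPM on total counts alone. An SE is the log2 fold change over the square root of F. Deviations from the FBS mean used log2(CPM + 0.5). Intervals of the log2 fold change were built from this SE, so they include the variation between libraries as well as counting error. Reads are not independent molecules.

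Alternatives were other scalings and filters, DESeq2 1.42.0, limma 3.58.1 (voom, and log2(FPKM + 1) or log2(FPKM + 0.1) at a mean FPKM of at least 0.5), a replicate block, each library left out, and a correction that removes a spline trend (5 degrees of freedom) with GC content and with length from each library by offsets. That correction with each library left out was chosen after seeing the data. The scripts were tested on simulated data.

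The factors and lists were chosen with earlier results of these data known. Values in every library are given for factors whose groups do not overlap, the 4 with the highest FPKM and those above 0; NOP58, RRS1, WDR75, NPM3 and DDX21 were added after their values were seen. In the other lists, genes that pass and the 3 with the smallest p are named; PWP2, NOL11, DDX18, GTPBP4 and RSL24D1 were added after their values were seen. Promoter sequences are from RefSeq, build GRCh38.p14, matched by symbol.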

Additional observations from a re-analysis of the deposited data

How the results depend on the processing

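Over 23 alternatives, 870 of 943 values of single factors kept their direction and their side of the threshold, 5 newly passed it and 68 changed sign, in 15 factors. Calls of factors at an adjusted p under 0.05 ranged from 0 to 4 when 1 library was left out, with or without the GC and length correction, and were 0 in the alternatives that kept all 6 libraries. Here and in the rest of this section, fits with 1 library left out include those with the correction. The median log2 fold change was -0.37 with the correction and ran from -0.52 to -0.28 with 1 library left out. Factors whose groups did not overlap in the lower direction numbered 6 on total counts alone (7.04% of all genes), and 11 to 23 with 1 library left out, where the share of all genes was also higher, at 10.8% to 19.1%. Of the other factors, 1 was called lower with the correction, 1 with the correction and the replicate block, 1 by DESeq2 and 0 to 5 with 1 library left out. Of all 13772 genes, 28 were called lower with the correction, 46 with the replicate block added and 42 by DESeq2. With 1 library left out, 1 to 133 of all genes then tested were called lower. The median of the other factors was -0.26 with the correction, -0.29 with the correction and the replicate block, and -0.40 to -0.24 with 1 library left out. The replicate block alone left 0 factors called, 38 of 41 below 0 and a median of -0.50. Deviations of same-numbered libraries from their group means correlated at -0.34, 0.139 and -0.117. Serum-starved replicates 1 and 3 correlated best with other numbers (0.287 with FBS replicate 2 and 0.333 with FBS replicate 1). Deviations from a mean of 3 libraries are not independent, so these correlations cannot decide whether the numbers pair the libraries. With the correction, TCOF1 had -0.25, RRP12 -0.25, NOP14 -0.016, UTP20 0.0084 and LTV1 0.0011, and with the replicate block added TCOF1 had -0.26, RRP12 -0.27, NOP14 -0.018, UTP20 0.010 and LTV1 0.029. With the replicate block alone, HEATR1 had -0.028 and RRP12 -0.020. On total counts alone NOP14 had -0.0090 and RRP12 -0.011, and with no low-count filter NOP14 had -0.0040 and RRP12 -0.0022. HEATR1 and RRP12 had -0.013 and -0.017 in limma-voom, -0.0077 and -0.016 on log2(FPKM + 1), and -0.026 and -0.019 on log2(FPKM + 0.1). With 1 library left out, the log2 fold change ran from -1.33 to 0.13 in NOP58, -0.60 to 0.052 in GAR1, -0.78 to 0.0021 in NHP2, -0.50 to 0.0071 in UBTF, -0.44 to 0.23 in TCOF1, -0.40 to 0.44 in HEATR1, -0.81 to 0.14 in UTP20, -0.33 to 0.068 in NOL6, -0.11 to 0.084 in NOP14, -0.40 to 0.16 in NOC4L, -0.95 to 0.14 in LTV1, -0.43 to 0.15 in RRP12, -0.68 to 0.046 in NOC2L, -0.047 to 0.24 in RRP1B and -0.84 to 0.13 in BRIX1. These ranges join the fits with and without the GC and length correction. With a library left out and no correction, NOP58, GAR1, LTV1 and BRIX1 stayed below 0. Their highest values were then -0.068, -0.19, -0.24 and -0.16. RRP1B stayed above 0 without the correction, with a lowest value of 0.051. The cause of these changes was not tested. With 3 libraries a group and a biological coefficient of variation of 36.3%, the 95% intervals of 34 of the 41 factors span 0, and those of the other 7 do not.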
